A study of Mus musculus with 8 samples.

Results

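The Ly6 surface antigen family was described here through 8 genes, Ly6a, Ly6c1, Ly6c2, Ly6d, Ly6e, Ly6g, Ly6i and Ly6k, taken from 23084 listed genes by their symbols. They include the genes of both antigens used for cell sorting, Ly6C and Ly6G. RNA-sequencing was done on myeloid cells sorted from mouse spleens, in 8 samples that fell into 4 groups of 2. The groups were wt CD11b+Ly6C+ cells, wt CD11b+Ly6G+ cells, Lmna KO CD11b+Ly6C+ cells and Lmna KO CD11b+Ly6G+ cells, all from C57BL/6 mice 6 to 8 weeks old. The knockout was made by crossing floxed Lmna, the gene of lamin A/C, with LysM-Cre, a Cre recombinase driven in cells of the myeloid lineage. Whether the mice of these libraries bore tumors was not given in the labels, nor whether the samples of a group came from separate animals. Titles gave the subset, since the label for sorting markers read CD11b+Ly6C+ in all samples.

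Ly6 proteins are small surface proteins that share a fold held together by disulfide bonds, known as the Ly6/uPAR or 3-finger domain. Most of them are tied to the outer face of the plasma membrane by a glycosylphosphatidylinositol (GPI) anchor, a lipid added after synthesis, and have no part inside the cell. In myeloid cells the family is known for its use in naming cells. Ly6C marks monocytes, Ly6G marks granulocytes, and the antibody to Gr-1 binds Ly6G and also Ly6C.

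The level of each gene was the authors' mean normalised signal, that is, gene counts divided by a size factor of the library and then averaged over libraries. The table used here gave 1 such mean per gene. The mean ran over 8 libraries, as many as the series has samples, because each of the 1637 distinct means below 1 was a sum of whole multiples of the same 8 steps, within 2e-08. Those libraries were taken to be the 8 samples, so that each level covers both subsets and both genotypes together. No level of a single sample or group could be read from it, and wt and Lmna KO cells, or CD11b+Ly6C+ and CD11b+Ly6G+ cells, could not be compared. Fewer cells of a type and less RNA per cell cannot be told apart in such a mean. The total depth of each library was unknown, but the 8 size factors ran from 0.796 to 1.91. The second highest was 1.05, so the library with the highest stood apart from the rest. The intervals given below are 95% intervals that cover counting error only, computed from the fewest reads that could lie behind a mean. They say nothing of the spread between samples, which is unknown. A read here is 1 unit of a gene count, and the authors' gene counts were estimates.

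By signal, Ly6e, Ly6c2 and Ly6g were the highest of the 8 genes, and Ly6k was the lowest. All listed genes together had a median signal of 46.8. Of the 8 members, 7 lay above that median, and 4 were at or above the level of 90% of genes. The median of the members was 1822. Together they held 0.183% of the summed signal of all genes, and Ly6e, Ly6c2 and Ly6g made up 91.6% of the members' sum.

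Ly6c1 and Ly6c2 encode the Ly6C antigen of monocytes, and their 2 levels were far apart. The signal of Ly6c2 (ENSMUSG00000022584.14) was 14413, with an interval of 14320 to 14507, and was at or above that of 99.1% of listed genes. The signal of Ly6c1 (ENSMUSG00000079018.10) was 62.2, with an interval of 56.3 to 68.7, at or above 52.0% of genes. Genes differ in length and a longer one gives more reads, so levels were also divided by the merged length of all annotated exons. An order of genes by signal, where one is given, describes the signal alone and not the abundance of transcripts. On that scale Ly6c2 had 5260 and Ly6c1 had 37.1 signal per kb, a ratio of 142. The ratio was 72.9 with the longest transcript of each gene as the length and 259.85 with the coding sequence, so its size hung on the length while its direction did not.

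The coding sequences of Ly6c1 and Ly6c2 show how alike both copies are. Of 393 aligned coding bases, 356 were identical, which is 90.6%, and 37 differed. The sequences aligned had 441 bases for Ly6c1 and 393 for Ly6c2, and the Ly6c1 bases opposite 5 gap blocks were not counted. For Ly6c1, with 7 annotated transcripts, the longest annotated coding sequence was taken. Its other transcripts were not aligned, so whether they would give another identity was not tested. Their first 120 coding bases in the GENCODE transcripts follow, 5′ to 3′, with the 6 bases that differ in capitals, to show how few bases set both genes apart here.
Ly6c1: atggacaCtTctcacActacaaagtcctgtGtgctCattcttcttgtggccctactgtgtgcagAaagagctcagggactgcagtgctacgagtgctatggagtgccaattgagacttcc
Ly6c2: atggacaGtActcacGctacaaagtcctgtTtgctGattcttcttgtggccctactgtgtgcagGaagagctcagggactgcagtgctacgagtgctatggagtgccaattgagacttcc
The start of both sequences codes for the signal peptide that brings the protein into the secretory pathway.

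Reads that fit both genes are divided between them by estimation in RSEM. Of 1764 stretches of 75 bases in the annotated Ly6c1 transcripts, 336 (19.0%) occurred unchanged in transcripts of Ly6c2 or Ly6a, and 259 of them were shared with Ly6c2. From the side of Ly6c2, the same 259 stretches were 9.46% of 2737. The part of this sharing in the low level of Ly6c1 was not tested.

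Ly6g, the gene of the granulocyte antigen Ly6G, was high as well. Its signal (ENSMUSG00000022582.4) was 7853, with an interval of 7785 to 7922, at or above 97.7% of listed genes. Per kb of merged exons it was the highest member, with 8337. The order of both sorting antigens depended on the length. Ly6c2 stood at 0.631 times Ly6g per kb of merged exons and at 0.644 times with the longest transcripts, but at 1.88 times with the coding sequences. The merged exons of Ly6c2 were 2740 bases long against 942 bases for Ly6g, and the longest of 4 annotated Ly6c2 transcripts, with 2680 bases, made up most of them. The third sorting antigen, CD11b, is the product of Itgam, whose signal was 54059.8, or 10760.3 per kb. None of the 75-base stretches of Ly6g was found in another gene.

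Ly6e encodes a widely expressed family member that is induced by interferon and acts on the entry of several viruses into cells. Its signal (ENSMUSG00000022587.14) was the highest of the 8 before division by length, with 20026 and an interval of 19916 to 20136, at or above 99.4% of listed genes. Per kb of merged exons, Ly6e at 5292 and Ly6c2 at 5260 differed by a ratio of 1.01, and their counting intervals, 5263 to 5321 and 5226 to 5294, overlapped. This was 1 of 7 pairs of neighbours in the order, and the other 6 pairs did not overlap. Ly6e has 16 annotated transcripts, and with their median length it had 24229.5 signal per kb against 19743.9 for Ly6c2. It shared no stretch of 75 bases with any other gene.

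Ly6a, or Sca-1, is known as an antigen of hematopoietic stem cells that also occurs on lymphocytes and is induced by interferon. Its signal (ENSMUSG00000075602.10) was 1436, with an interval of 1407 to 1466, at or above 85.6% of listed genes. Ly6i (ENSMUSG00000022586.11), its nearest relative in coding sequence, reached 132, with an interval of 123 to 141. Per kb of merged exons Ly6a had 1192 and Ly6i had 114, a ratio of 10.4. With the other 3 lengths this ratio stayed between 10.9 and 13.2, so it hung less on the length than that of Ly6c2 to Ly6c1. Of the 1311 stretches of 75 bases in Ly6a, 83 occurred elsewhere, namely 77 in Ly6c1 and 6 in Ly6i.

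Ly6d is known as a surface marker of lymphoid progenitors bound for the B cell lineage and of B cells. Its signal (ENSMUSG00000034634.7) was 2208, with an interval of 2171 to 2244, at or above 90.1% of listed genes. Per kb of merged exons it had 2967, between Ly6c2 and Ly6a. All 5 B cell markers used were listed as well, from 4531 for Cd79b to 5923 for Cd79a. The part of B cells in the signal of Ly6d was not tested.

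Ly6k, best known from the testis, was the lowest member. Its signal (ENSMUSG00000044678.11) was 16.2, with an interval of 13.3 to 19.7, and Ly6k was the only member below the median of listed genes. This mean rested on between 104 and 248 reads in all libraries together, against between 127570 and 306515 for Ly6e. On the scale per kb Ly6k had 19.6, with an interval of 16.0 to 23.7 that includes the median of listed genes, 18.8. The other 7 members were above the median on that scale, and Ly6k could not be told from it. The antisense gene Gm17189 overlaps Ly6k, and its signal was 0.513.

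**Figure D1:**
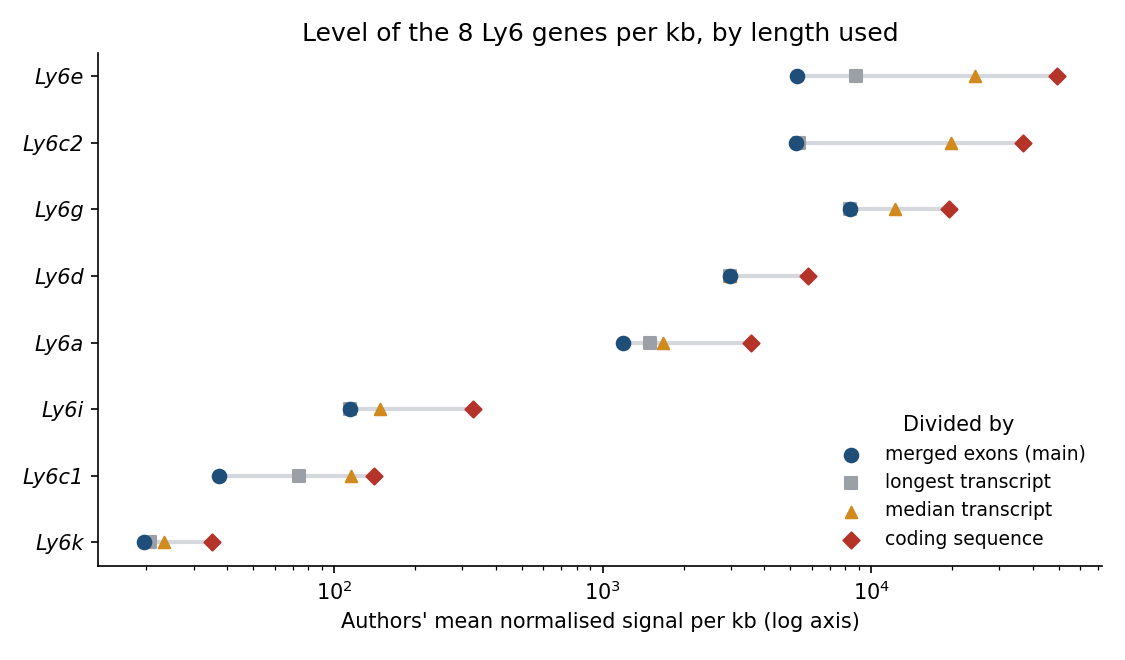
The authors' mean normalised signal per kb is plotted on a log axis for the 8 Ly6 genes, divided by each of 4 lengths (merged exons, longest transcript, median transcript, coding sequence). The grey bar spans the 4 values of a gene and is no error. Ly6g, Ly6e and Ly6c2 change places with the length, whereas Ly6d, Ly6a, Ly6i, Ly6c1 and Ly6k keep their order.

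**Figure D2:**
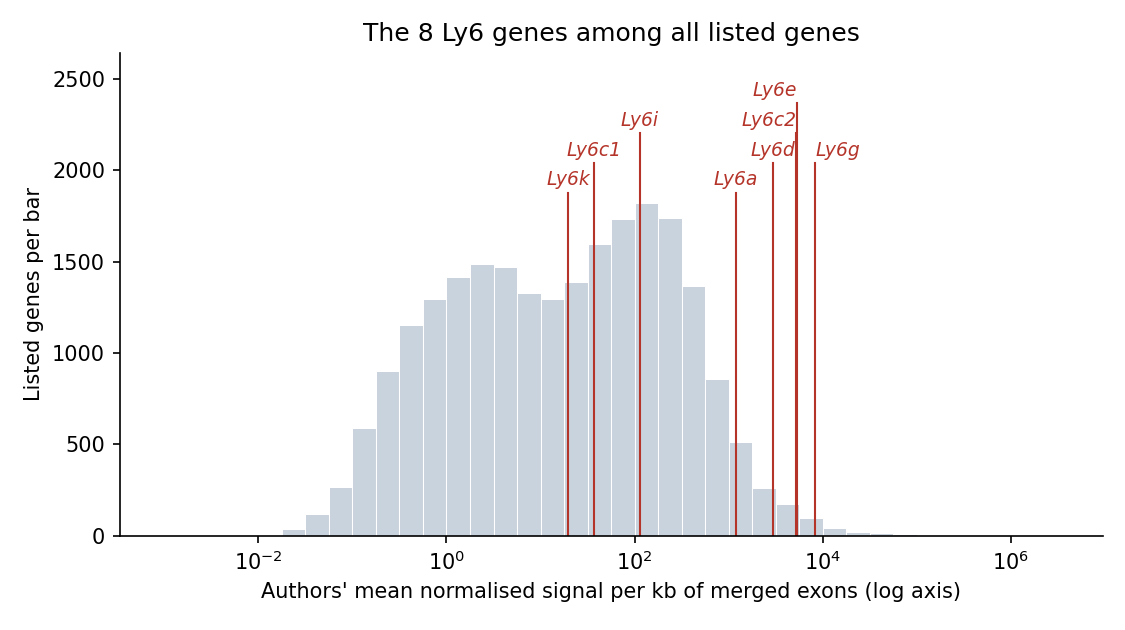
Bars count listed genes by the authors' mean normalised signal per kb of merged exons, on a log axis, and red lines mark the 8 Ly6 genes. Ly6k at 19.6 sits beside the median of 18.8, and Ly6a, Ly6d, Ly6c2, Ly6e and Ly6g sit in the upper tail, from 1192 to 8337.

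Below the top 3 genes, the order was the same on all 5 scales used. Ly6d was followed by Ly6a, Ly6i, Ly6c1 and Ly6k on the signal itself and on each of the 4 lengths. Between the highest and the lowest member the span was 1232-fold in signal and 425-fold per kb of merged exons. Whether this order holds in monocytic or in granulocytic cells alone could not be read from a mean over both.

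All 8 members lay in 1 cluster on chromosome 15 (GRCm38, the same build as mm10). The 8 members spanned 397 kb, from 74762056, the start of Ly6d, to 75159126, the end of Ly6g. That is the span of the chosen genes, and the cluster was not followed beyond it. In between came Ly6k at 74796874 to 74799986, Ly6e at 74955051 to 74959905 and Ly6i at 74979534 to 74983430. Ly6a at 74994877 to 74998031, Ly6c1 at 75044018 to 75048830 and Ly6c2 at 75108158 to 75111970 followed. Ly6e and Ly6g are read from the plus strand and the other 6 from the minus strand. High and low members alternated from Ly6d to Ly6c2. Ly6i, at 114 per kb, stood between Ly6e at 5292 and Ly6a at 1192, and Ly6c1, at 37.1, stood between Ly6a and Ly6c2 at 5260.

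The annotation places 17 other genes between the outermost members, and most of them had low levels. Of these, 14 were listed, and 11 of them had a signal below 10. Cyp11b2, which makes aldosterone in the adrenal gland, had 0.364, and Gml and Gml2, GPI-anchored relatives, had 0.940 and 0.460. The others below 10 were D730001G18Rik, Gm17189, Gm6610, Gm8000, Gm37042, Gm28069, Gm5960 and Gm28502, the highest of them Gm5960 with 9.39. Cyp11b1, Gm39556 and Gm29126 were not listed. The lincRNA gene Gm28068 had 50.1 and 2010109I03Rik had 28.6.

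The exception was I830127L07Rik, which lies between Ly6c2 and Ly6g at 75131377 to 75135128. GENCODE calls it a transcribed unprocessed pseudogene, whereas RefSeq lists a protein-coding gene, Ly6a2, there. Its signal was 6635, with an interval of 6572 to 6699, at or above 97.1% of listed genes and above the signal of 5 of the 8 members. Per kb of merged exons it had 8314, which was 99.7% of Ly6g and 158% of Ly6c2. With the longest transcript as the length it was 108.9% of Ly6g and 169% of Ly6c2, so its order with Ly6g turned with the length. With the median transcript as the length it was 95.1% of Ly6g and 59.2% of Ly6c2. Of its 804 stretches of 75 bases none occurred in a member, and 10 occurred in the pseudogene Gm5960. With stretches of 50 bases, 77 were shared, with Ly6a, Ly6c2 and Ly6i among the partners.

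**Figure D3:**
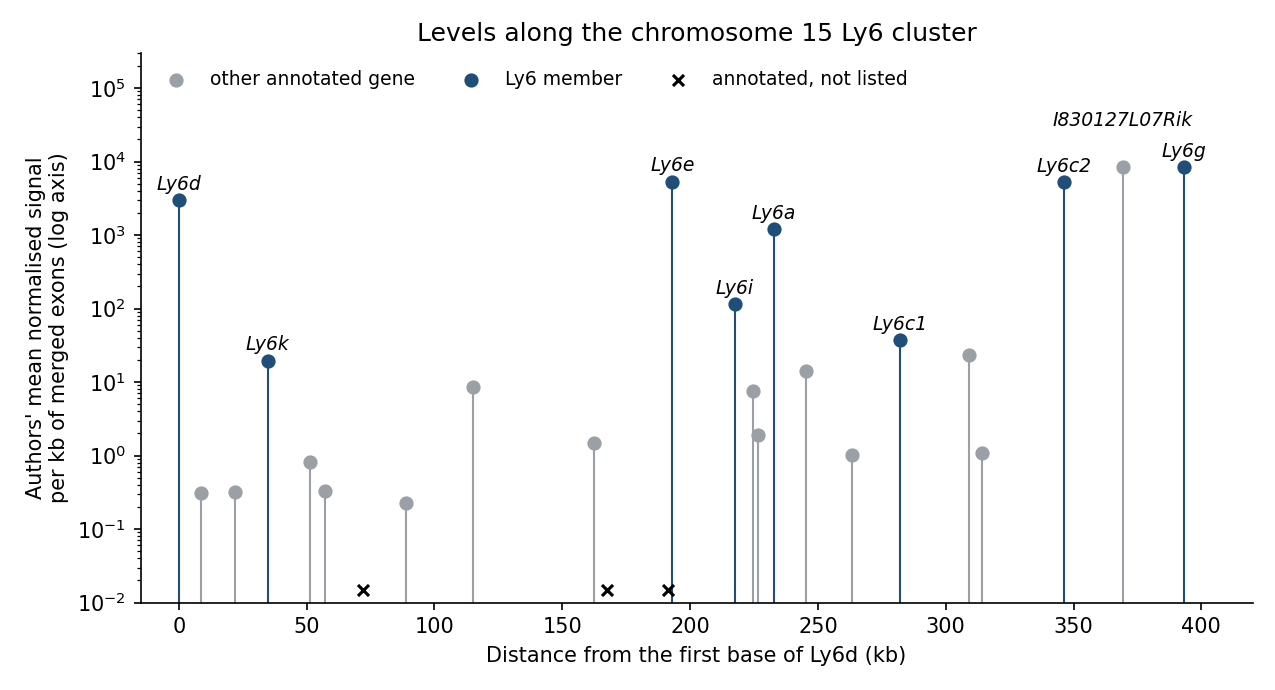
The authors' mean normalised signal per kb of merged exons (log axis) is plotted against the distance in kb from the first base of Ly6d. The 8 Ly6 genes are in blue and the other 14 listed genes between the outermost of them in grey. Crosses mark 3 annotated genes that were not listed. The right end of the stretch drawn, where the chosen genes stop, holds 3 high genes in a row, Ly6c2, I830127L07Rik and Ly6g, from 5260 to 8337. The low members Ly6k, Ly6i and Ly6c1 lie apart from each other.

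By coding sequence some members formed a close group, and Ly6d, Ly6e and Ly6k stood apart from it and from each other. Ly6a, Ly6c1, Ly6c2, Ly6g and Ly6i, a group set after their values had been seen, had between 76.3% and 90.6% identical bases in their 10 pairs. The other 18 pairs, each with Ly6d, Ly6e or Ly6k, had between 50.7% and 59.6%. Among themselves, Ly6d, Ly6e and Ly6k had between 50.9% and 58.6%. After Ly6c1 and Ly6c2, the closest pair was Ly6a and Ly6i with 86.3%. The lowest of the 10 pairs was Ly6a and Ly6c1, and each gene entered with 1 coding sequence only. The close group held high and low genes side by side, from 37.1 per kb for Ly6c1 to 8337 for Ly6g. All members that shared a 75-base stretch belonged to this group, namely Ly6a, Ly6c1, Ly6c2 and Ly6i. A share of stretches is not a share of reads, and how far it makes their levels uncertain was not tested. For Ly6i the share was 6 of 1156 stretches, or 0.519%.

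**Figure D4:**
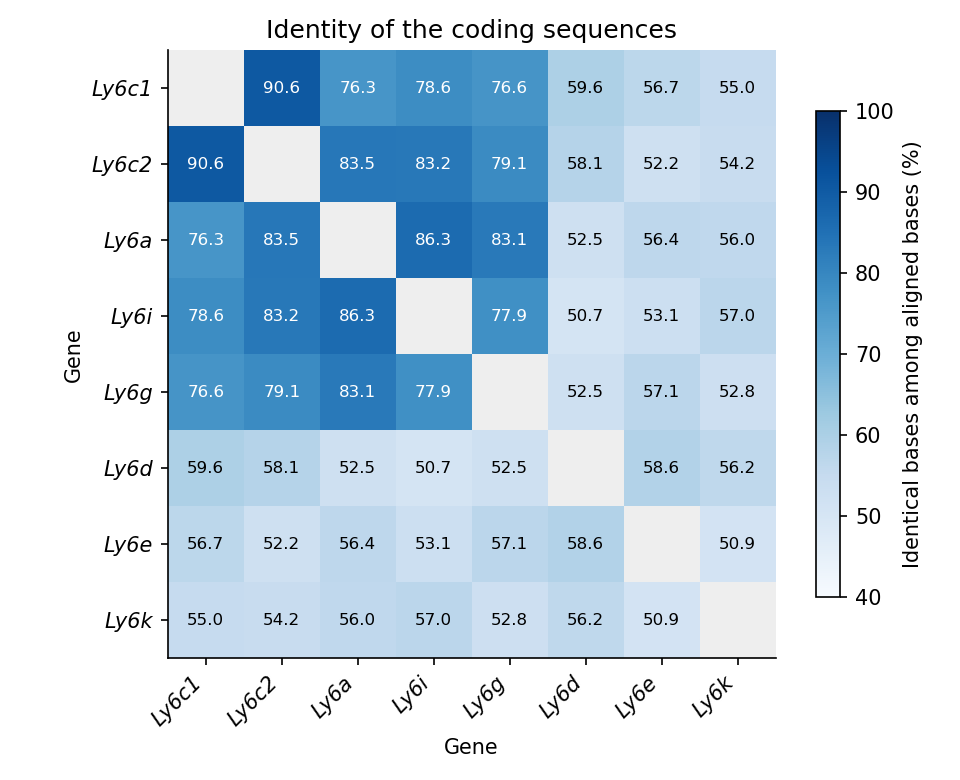
Each square gives the share of identical bases, in percent of aligned bases, between the coding sequences of 2 Ly6 genes. The 5 genes Ly6c1, Ly6c2, Ly6a, Ly6i and Ly6g form the dark block, from 76.3% to 90.6%, and all squares of Ly6d, Ly6e and Ly6k are at or below 59.6%.

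Promoter windows from RefSeq (GRCm38.p6), 300 bases long each, were matched for 3 of the 8 members, Ly6c1, Ly6c2 and Ly6g. Ly6a, Ly6d, Ly6e, Ly6i and Ly6k had no entry. The windows lie across the starts of the genes of both sorting antigens, and each reaches into its gene as annotated in GENCODE. For each gene 1 of 2 windows is shown, 5′ to 3′ on the gene's own strand, with the letters of the motifs described next in capitals. The windows are chr15:75048788-75049087 on the minus strand for Ly6c1, chr15:75111922-75112221 on the minus strand for Ly6c2 and chr15:75155079-75155378 on the plus strand for Ly6g.
Ly6c1: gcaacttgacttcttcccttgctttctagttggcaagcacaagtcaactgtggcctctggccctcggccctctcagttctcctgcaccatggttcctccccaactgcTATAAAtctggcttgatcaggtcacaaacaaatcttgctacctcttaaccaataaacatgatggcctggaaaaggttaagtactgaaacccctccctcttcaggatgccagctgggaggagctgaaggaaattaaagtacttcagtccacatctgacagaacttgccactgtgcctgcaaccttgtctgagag
Ly6c2: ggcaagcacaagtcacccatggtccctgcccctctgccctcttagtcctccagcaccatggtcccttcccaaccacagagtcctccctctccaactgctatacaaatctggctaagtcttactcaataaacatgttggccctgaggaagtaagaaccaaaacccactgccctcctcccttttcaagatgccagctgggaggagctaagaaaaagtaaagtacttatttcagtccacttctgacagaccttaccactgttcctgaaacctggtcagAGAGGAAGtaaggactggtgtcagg
Ly6g: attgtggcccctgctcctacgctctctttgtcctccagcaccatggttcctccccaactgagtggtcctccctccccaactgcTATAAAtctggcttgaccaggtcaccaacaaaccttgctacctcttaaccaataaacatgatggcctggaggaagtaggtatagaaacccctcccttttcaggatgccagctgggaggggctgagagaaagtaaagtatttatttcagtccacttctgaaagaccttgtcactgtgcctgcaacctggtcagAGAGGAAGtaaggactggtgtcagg
These windows are relatives of each other. Ly6c1 and Ly6c2 had 208 identical bases of 266 aligned (78.2%), Ly6c1 and Ly6g had 220 of 251 (87.6%), and Ly6c2 and Ly6g had 233 of 272 (85.7%).

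A set of 7 motifs was searched on both strands of all 6 windows and of the 32851 windows of the table. The letters AGAGGAAG, a form of the site of PU.1, the master factor of myeloid cells, were in 4 of the 6 windows and in 4.55% of all windows. In the first 200 bases alone they were in 1 of the 6 windows and in 2.67% of all windows. The 4 windows held 3 places, 1 in each gene, since both windows of a gene overlap. At Ly6c2 and Ly6g they began 25 bases past the start site of the windows above, and 7 of their 8 bases were exonic in GENCODE, so they crossed the end of an exon. At Ly6c1 they lay in the window not shown, and all 8 bases were exonic. The same place follows with 12 bases on either side, the motif in capitals.
Ly6c2: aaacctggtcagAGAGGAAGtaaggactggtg
Ly6c1: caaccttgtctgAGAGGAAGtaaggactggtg
Ly6g: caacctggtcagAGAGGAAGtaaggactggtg
Of these 32 bases, Ly6c1 matched Ly6c2 in 29 and Ly6g matched Ly6c2 in 31, so the letters were common to the high and the low copy. A match is a description of the letters and not a binding site.

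The other motifs were fewer, and places of different motifs did not overlap. The letters TATAAA, those of the TATA box, were in 3 windows, at 1 place in Ly6c1 and 1 in Ly6g, and in 13.6% of all windows. Counted from the start site of the window, they began at -143 in Ly6c1. In Ly6g they began at -167 in the window shown above and at -99 in the other. They were in neither window of Ly6c2, the higher of the Ly6C genes. The C/EBP letters TTGCNNAA were in 1 window, that of Ly6g not shown above, and in 10.8% of all windows. The gamma-interferon site GAS (TTCNNNGAA), the core of the interferon response element ISRE (GAAANNGAA), AP-1 (TGANTCA) and GFI1 (AAATCAC) were in none of the 6 windows, against 8.30%, 8.56%, 7.81% and 3.20% of all windows.

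The remaining Ly6/uPAR family was mostly scarce. Of 37 further family genes on a list, 16 were listed and 5 lay above the median, while 21 were not listed. The 16 listed had a median of 3.10 in signal and 2.09 per kb, against 1822 and 2079.5 for the 8 members and 46.8 and 18.8 for all genes. The members were all taken from listed genes and include both sorting antigens, so these medians do not compare sets chosen alike. The high genes among the 16 were Cd177, a neutrophil surface protein, with 43207, and Plaur, the urokinase receptor, with 9022. Per kb, Cd177 at 15214 stood above all 8 members and Plaur at 3448 between Ly6c2 and Ly6d. Lynx1, a modulator of nicotinic receptors, had 399 and Ly6g5b had 168. The Ly6-like genes Ly6g6d and Ly6g6e of another cluster had 1.68 and 1.07.

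The genes chosen from the machinery of the GPI anchor were all listed, at moderate levels. All 22 genes of anchor synthesis and transfer lay above the median, with a median of 543 and 99.1 per kb. By signal the highest were Pigb with 1486, Pigs with 1428, Pigt with 1413 and Pigm with 1256. Divided by merged exons these had 142, 571, 366 and 166 per kb, so that Pigb and Pigm fell below Pigx at 331 and Dpm2 at 329. Pigb and Pigm add mannose to the growing anchor, and Pigs and Pigt belong to the transamidase that joins the anchor to the protein. All 5 genes of anchor remodelling were above the median too, with Mppe1 at 1554, Tmem8 at 1422, Pgap1 at 962, Pgap2 at 778 and Pgap3 at 92.7. Per kb, none of these 27 genes reached Ly6a, the fifth of the members, at 1192.

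Interferon induces Ly6a and Ly6e in many cells, and genes of its receptors and signalling chain were high. All 9 described lay above the median, with a median of 3416 in signal and 737 per kb. The kinases Jak1, Jak2 and Tyk2 had 13509, 3385 and 1797. The receptor chains Ifngr1, Ifngr2, Ifnar1 and Ifnar2 had 4777, 3525, 3416 and 3056. The factors Irf9 and Stat2 had 3970 and 2434. Among 10 myeloid transcription factors, all again above the median, Spi1, which encodes PU.1, was the highest with 12455 in signal and 4622 per kb. Cebpd had 5036, Irf8 had 3448, Cebpb had 3174 and Cebpe, a factor of granulocyte maturation, had 2423. Irf4 had 869, Egr1 had 863, Cebpa had 784, Klf4, a factor of monocytes, had 321 and Gfi1, a factor of granulocytes, had 284.

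**Figure D5:**
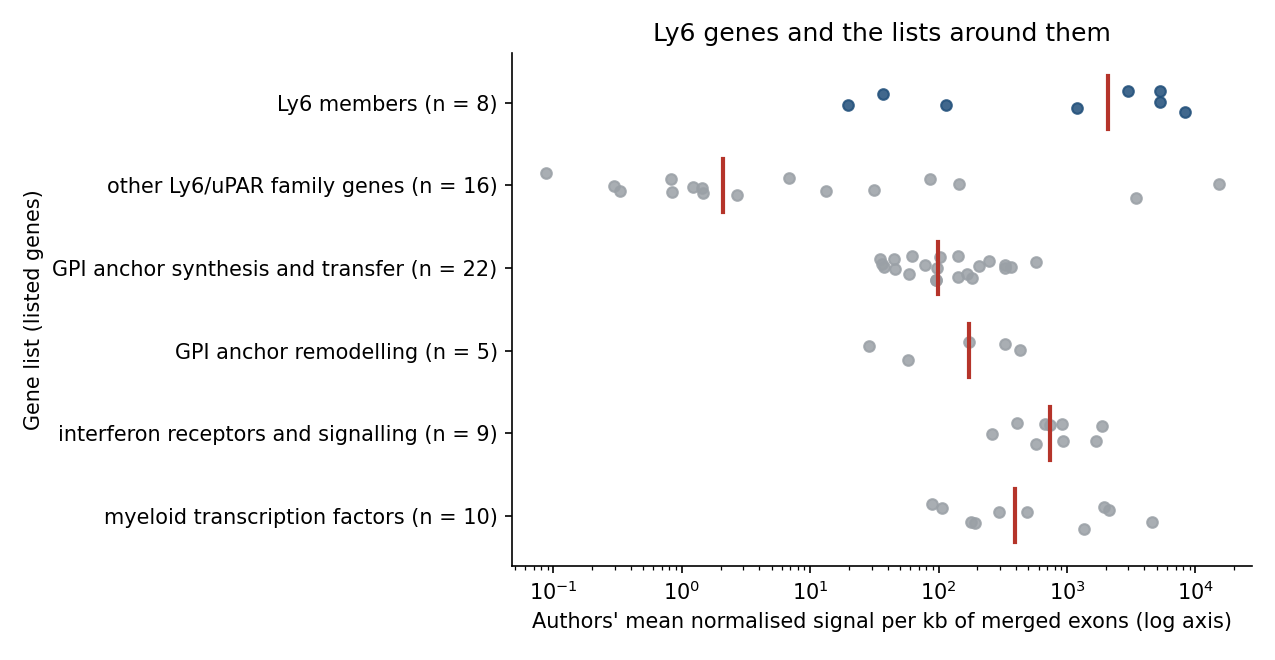
Each point is a listed gene, placed by the authors' mean normalised signal per kb of merged exons on a log axis, and red bars mark the medians of the lists. The 8 Ly6 members (blue) have a median of 2079.5 per kb, above those of the 5 other lists drawn, and the other Ly6/uPAR genes spread the widest, from Slurp1 to Cd177 at 15214.

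The markers of both sorted subsets were high, and those of other spleen cells were listed as well. Monocyte markers ran from 706 for Cx3cr1 to 22159.5 for Csf1r (8 of 8 listed), with a median of 2601. Those of mature neutrophils ran from 3438 for Il1r2 to 725556 for S100a9 (10 of 10), the highest signal of the table. Their median was 79757. Neutrophil granule genes had a median of 60084 and promyelocyte genes one of 1126. Among cells outside the gates, red pulp macrophage markers had a median of 10558, B cell markers 5085, plasma cell markers 869, T and NK cell markers 391, and markers of eosinophils, basophils and mast cells 150. Plasmacytoid and conventional dendritic cell markers had medians of 110 and 78.5, and erythroid and platelet markers 109.8. Within some of these lists the spread was wide. The highest plasma cell marker was Jchain with 10848, the highest erythroid or platelet marker Hbb-bs with 8580. Among conventional dendritic cell markers it was Itgax with 2601. The medians of red pulp macrophage and B cell markers were above that of monocyte markers. None of these markers was at 0, and which samples held them cannot be read from the mean. Their part in the levels of the Ly6 genes was not tested. Lmna, the gene deleted in the knockout mice, had 79.5 and Lmnb1, encoding lamin B1, had 4705, both over wt and knockout samples together.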

How the data were processed

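RNA was measured by RNA-sequencing in 8 samples of sorted spleen myeloid cells. Per the methods and the submitters' processing notes, the authors checked reads with FastQC 0.11.5 and Picard 1.119, removed adapters with Cutadapt 1.14, mapped them onto mm10 by STAR 2.5.2b in two-pass mode, estimated gene counts with RSEM 1.3.0 and GENCODE M12, and ran DESeq2 1.20.0. The deposited signal is the authors' mean of counts divided by size factors. A further 6 columns hold the authors' own comparison (fold changes, standard error, test statistic and p-values) and were not used, so no test was run. The filter on listed genes is not given in the sources used here.

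The steps of 1 read behind the low means were found by a search for repeated differences. It recovered the libraries in 4 of 4 simulated tables of 6 to 9 libraries. The simulated size factors were drawn from a narrower range than those found here, so libraries this uneven were not simulated. Lengths, coordinates and coding sequences came from GENCODE M21 (GRCm38), a later release, which held 23004 of 23084 genes. Coding sequences were aligned with Biopython 1.88 under Python 3.11.15. A planned comparison of proteins was replaced by one of coding bases. Shared sequence was counted as stretches of 75 bases found exactly in transcripts of another gene.

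The members and gene lists were chosen with earlier results of these data known. Named genes were all members, the genes between them on the chromosome and both lamins. Every gene of lists of up to 10 was named too, and the 4 highest of longer lists. Others named were chosen after their values were seen. Marker lists are given by their range, median or highest gene. From the lists, 2 genes are not reported here. A symbol listed under several identifiers was taken at its highest signal.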

Additional observations from a re-analysis of the deposited data

How the results depend on the processing

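Every value is an average made by the authors, so there was no replicate to leave out. No paired analysis was possible because means over libraries carry no replicate numbers and no result comes from a test. Of the members, 7 lay above the median signal of all listed genes, 5 above that of genes with a signal of at least 10, 5 above that of protein-coding genes and all 8 on the scale per kb, where Ly6k lay within counting error of the median. Counting genes at 0 gave no further value, since none was listed at 0. The members' share of the summed signal was 0.191% without mitochondrial genes and 0.216% without the 20 highest genes. The length moved more. The ratio of Ly6c2 to Ly6c1, 142 with merged exons, was 72.9 with the longest transcript and 259.85 with the coding sequence. The ratio of Ly6c2 to Ly6g turned from 0.631 to 1.88 with the coding sequence and to 1.61 with the median transcript, a length chosen for the ratios after the data had been seen. Levels per kb moved by more than 1.5 times for 8 members with the coding sequence, 3 with the median transcript and 2 with the longest transcript, always upward, since merged exons are the longest of these lengths. Members sharing a stretch of transcript numbered 4 at 75 bases, 5 at 50 and 3 at 100. Matches of motifs and windows fell from 8 to 5 when the first 200 bases alone were searched, all through PU.1, which fell from 4 windows to 1. Depth limited Ly6k the most, with a counting interval of 13.3 to 19.7 around 16.2.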

Other observations

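In 12 of the scarcest genes of the family or its cluster the mean was low enough to give back the whole counts behind it, in 1 way each. They are called reads here, but are units of counts estimated by RSEM, which divides reads that fit several genes. Gml, a GPI-anchored relative, had 8 reads in 7 of the 8 libraries, with at most 2 in 1 library, and Gml2 had 4 reads in 4 libraries. Ly6g6e had 8 reads in 3 libraries and Cd59b, a complement inhibitor, had 4 reads in 3. Slurp1, a secreted family member of epithelia, had 2 reads in 2 libraries. Gm17189, antisense to Ly6k, had 6 reads in 3 libraries, 4 of them in 1 library. No listed mean below 1 came from fewer than 2 libraries. The reads cannot be tied to samples.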
